A study of Ovis aries with 60 samples.

Results

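The 20 semen RNA libraries of the F2 rams were ranked by the ratio of CCDC168 to KRT78 transcripts, and the 6 libraries with the highest ratio were compared with the 6 with the lowest. These 12 libraries belong to a series of 60 samples, and 8 further F2 libraries lie between the ends. CCDC168 encodes a coiled-coil protein, and KRT78 encodes a keratin of stratified squamous epithelium such as that lining the mouth, oesophagus and distal urogenital tract. The score was log2((CCDC168 CPM + 1)/(KRT78 CPM + 1)), where CPM is a count scaled to the library total after TMM normalization, a correction for differences in library composition. The 6 libraries at the top are called CCDC168-high and the 6 at the bottom KRT78-high, names that refer to the ratio and not to either transcript alone. In order of falling score, the CCDC168-high libraries are named C1 to C6 (SpermRNA485C, SpermRNA382T, SpermRNA359T, SpermRNA413C, SpermRNA475C and SpermRNA366C by their labels), the 8 between M1 to M8, and the KRT78-high libraries K1 to K6 (SpermRNA350C, SpermRNA480T, SpermRNA372T, SpermRNA409C, SpermRNA400C and SpermRNA468C), and each ram carries the name of its library. Because the libraries were selected on their own counts, every difference in expression between the ends is given as a description, without a p-value. CG methylation of the same rams was not used in the selection and was tested.

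In the study, F0 Polypay rams were twins, of which 1 received extra methionine from weaning to puberty (treatment group) while the other received the control diet. The F2 rams are their grandsons, 10 from treatment and 10 from control F0 rams, and all F1 and F2 animals ate the control diet. No F2 ram was itself treated. The CCDC168-high libraries come from 2 grandsons of treatment rams (C2 and C3) and 4 of control rams (C1, C4, C5 and C6), and the KRT78-high libraries from 2 of treatment rams (K2 and K3) and 4 of control rams (K1, K4, K5 and K6). The 12 rams descend from 7 F0 sires, their grandsires. The study bred 1 F1 ram from each F0 sire, so rams that share an F0 sire also share an F1 sire. Rams C4 and C6 share an F0 sire and both lie at the CCDC168-high end, and rams K4 and K5 share an F0 sire and both lie at the KRT78-high end. Rams C1 and K1, C2 and K3, and C5 and K6 each share an F0 sire and lie at opposite ends. Semen was taken by electroejaculation, and the cells used for RNA were treated with a somatic cell lysis buffer before extraction.

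Semen holds spermatozoa together with cells shed along the tract. Late in spermatogenesis, spermatids build the acrosome, replace histones with transition proteins and then protamines as they elongate and condense, and assemble a tail around the axoneme, the outer dense fibres and the fibrous sheath. A mature spermatozoon no longer transcribes its genes, so that its RNA consists of remnants of spermatid messages. Stratified squamous epithelium matures towards its surface, where cells express keratins, the proteins of the cornified envelope and desmosomal proteins before they are shed. White blood cells, mostly neutrophils, are the other common somatic cells of an ejaculate. In bulk RNA, fewer cells of a type and less RNA per cell cannot be told apart.

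Depth differed between the ends. Total counts over genes ran from 805831 to 5235353 in the CCDC168-high libraries and from 2684737 to 13137757 in the KRT78-high libraries. The ranges overlapped, and the difference in means passed the test (2-sided exact permutation test over the 924 ways to split 12 libraries, p = 0.0433). The 10 most abundant genes took 9.75% of counts on average in the former and 13.8% in the latter. TMM factors were 1.21 to 2.54 against 0.361 to 1.17, with no overlap. The part of depth in the differences below was examined by thinning all 12 libraries to 732038 counts over the filtered genes. TMM scaling was applied again to the thinned counts, so thinning cannot show the part of scaling. Rams C1 and C2 stand apart from the other CCDC168-high libraries, and counts without them are given below.

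The score placed the ends far apart by construction (plot of marker transcripts by library). CCDC168 reached 2502 CPM at the lowest, 12082 at the median and 33191 at the highest in the CCDC168-high libraries, and 298 CPM at the lowest, 463 at the median and 879 at the highest in the KRT78-high libraries. KRT78 was at 29.6 CPM in ram C1 and 62.2 CPM in ram C2, while the other 4 CCDC168-high libraries held 1390 to 4581 CPM and the KRT78-high libraries 8156 to 36816 CPM. The 8 libraries between held 1011 to 5042 CPM of CCDC168 and 2615 to 21615 CPM of KRT78, with a KRT78 median of 10524 CPM. Rams K1, K2 and K4, at 8156, 9376 and 8525 CPM of KRT78, lay under that median. Ram C6 held 2502 CPM of CCDC168, less than rams M2, M3 and M4 between the ends. Scores ran from 9.59 in ram C1 to -6.32 in ram K6. Just inside the upper limit lay ram C6 at 0.76 and just outside it ram M1 at -0.65. At the lower limit the difference was smaller, with ram K1 inside at -3.99 and ram M8 outside at -3.66. The upper end is therefore cut at a wider gap than the lower end. KRT4, a keratin of the suprabasal layers of wet squamous epithelia that the ranking did not use, was at 10.4 CPM in ram C1 and 31.9 CPM in ram C2, at 365 to 937 CPM in the other CCDC168-high libraries, and at 2523 to 21138 CPM in the KRT78-high libraries.

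**Figure D1:**
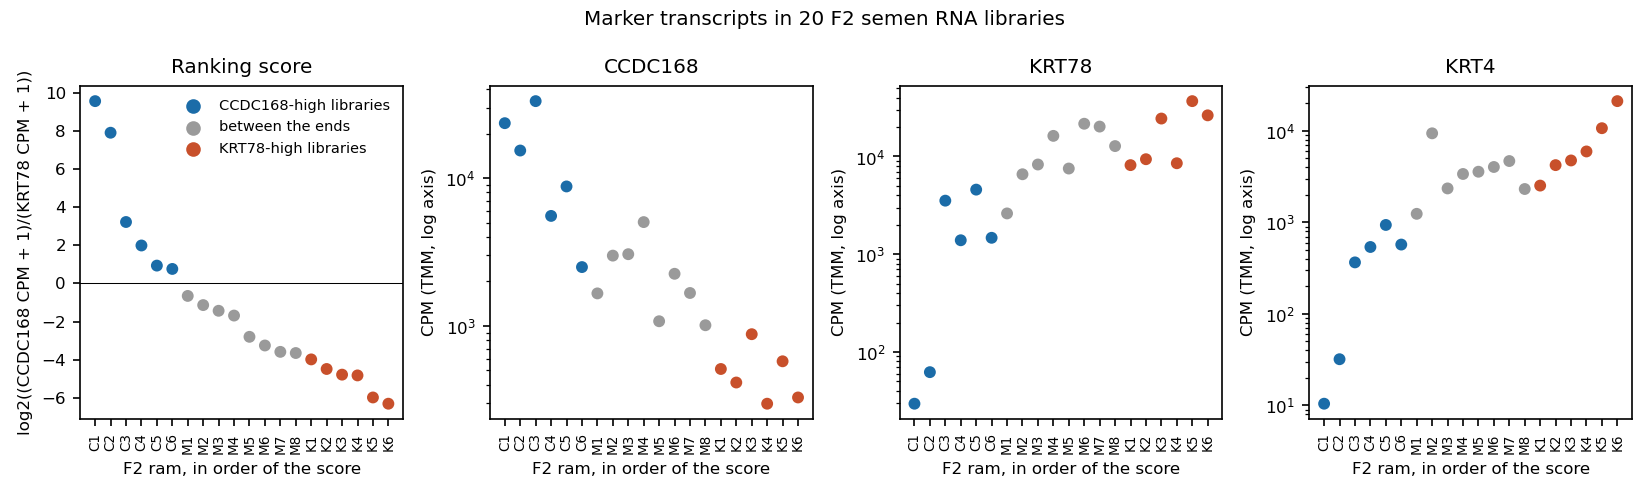
Each point is 1 of 20 F2 libraries, placed by its rank on the score along the x axis and labelled by ram. The y axes show the score (log2) and the TMM-scaled CPM of CCDC168, KRT78 and KRT4 on log axes. Rams C1 and C2 hold 29.6 and 62.2 CPM of KRT78, under all other libraries.

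Other markers of each cell type, fixed as lists with earlier results of these data known, were read against the names of the 2 ends. Of 10 spermatid markers, 9 passed the filter on low counts and all 9 were called higher in CCDC168-high libraries, beside 25.3% of all genes compared, among them the protamine PRM1, the transition protein TNP1, the outer dense fibre protein ODF1 and the testis kinases TSSK2 and TSSK6. ACR, the acrosomal protease acrosin, did not pass the filter. Of 10 squamous markers, 7 could be compared and 6 were called lower in CCDC168-high libraries, beside 33.7% of all genes. These 6 are KRT4, the desmosomal genes DSG3, DSP and PKP1, and PPL and EVPL of the cornified envelope. KRT4 had been set as a marker together with the ranking pair, so it is not a further marker. Of the basal layer, KRT5 did not pass the filter, and TP63, the transcription factor of basal cells, had a log2 difference of 0.75 towards the CCDC168-high libraries and was not called. KRT13 and KRT14 were not analysed here.

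Across the 13575 genes compared, edgeR called 3440 higher in CCDC168-high libraries, which is 25.3% of genes, and 4577 lower, which is 33.7%. The libraries of the ends did not overlap for 1717 genes higher (12.6%) and 1689 genes lower (12.4%). These percentages are the background against which each list below is read. The median log2 difference over all genes was -0.20. At more than 4-fold, 1309 of the genes called higher and 2484 of those called lower remained. The mean of the 8 libraries between the ends lay between the means of the 2 ends for 95.1% of called genes, against 78.8% of all genes. Without rams C1 and C2, 2426 genes were called higher and 3409 lower. After thinning, 3469 genes were called higher and 2918 lower, so that 54.3% of calls were higher in place of 42.9%, and the median over all genes moved to 0.21. Without a filter on low counts it was 0.13. With 10 libraries per end, 2823 genes were called higher and 2604 lower, so that 52.0% of calls were higher. None of the lists below changed the sign of its median under thinning, without C1 and C2, or under the other alternatives run, apart from the lists of other organs, which were not run under them. Each of these alternatives scaled for library composition, by TMM or DESeq2 size factors. They therefore cannot show the part of that scaling in the signs.

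The 12 non-overlapping genes with the largest differences towards the CCDC168-high libraries included TEX15 and HFM1 of meiosis, CABS1 of spermatids and CFAP97D1 of the tail, together with genes better known from other tissues (plot of the leading genes). MGAT4C, a glycosyltransferase gene, was at 50.8 CPM at the lowest, 96.7 at the median and 211 at the highest in the CCDC168-high libraries and at 1.21, 2.84 and 4.03 CPM in the KRT78-high libraries, a log2 difference of 5.40 (SE 0.55). KLHL1, a Kelch-like actin-binding protein better known from neurons, differed by 5.42 (SE 1.00), but its CCDC168-high libraries were spread from 8.66 to 359.2 CPM. PIP5K1B, a lipid kinase that makes phosphatidylinositol bisphosphate, differed by 5.10 (SE 0.92), with ram C3 at 1814 CPM and the other 5 CCDC168-high libraries between 50.8 and 338 CPM. In all 3 genes the 6 libraries of each end were separate.

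TEX15, a germ cell protein needed for meiotic recombination and transposon silencing, was at 335 CPM at the lowest, 1477 at the median and 5997 at the highest in the CCDC168-high libraries and at 41.7, 50.5 and 112 CPM in the KRT78-high libraries. HFM1, a DNA helicase of meiotic crossing over, had a log2 difference of 4.94 (SE 0.68). CABS1, a calcium-binding protein of spermatids, was at 519 to 8078 CPM in the CCDC168-high libraries and 49.3 to 256 CPM in the KRT78-high libraries. CFAP97D1, required for the sperm axoneme, was at 64.2 to 887 against 6.57 to 22.97 CPM. For each of these 4 genes ram C6 was the lowest of the CCDC168-high libraries. TBC1D31, a centriolar satellite protein, differed by 5.04 (SE 0.79), and KL, which encodes the FGF23 co-receptor klotho, by 4.89 (SE 0.56). IQCF2, ZBBX and ASB17 completed the 12, with log2 differences of 5.05 (SE 0.56), 4.95 (SE 0.73) and 4.93 (SE 0.65).

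The 12 leading genes in the other direction included the keratins KRT17 and KRT4 and the heat-shock genes HSPB1 and HSPH1. KRT17, a keratin of activated and glandular squamous cells, was at 4.44 CPM at the lowest, 11.4 at the median and 35.9 at the highest in the CCDC168-high libraries and at 111, 398 and 688 CPM in the KRT78-high libraries, a log2 difference of -4.66 (SE 0.73). KRT4 differed by -4.33 (SE 1.10). ENPP4, an ectonucleotide phosphodiesterase, had the largest difference at -4.75 (SE 0.89), but its KRT78-high libraries were spread from 16.1 to 650 CPM and only rams K3 and K6 exceeded 500 CPM. GPRC5A, a retinoid-induced receptor of epithelia, was at 7.81 to 319 against 599 to 7029 CPM. APOBEC3Z1, an antiviral cytidine deaminase, was at 3.23 to 212 against 908 to 8466 CPM.

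ARG1, the arginase that ends the urea cycle and is also found in keratinocytes and granulocytes, differed by -3.96 (SE 0.72), and HPGD, which degrades prostaglandins, by -3.85 (SE 0.84). UPP1, a uridine phosphorylase, was at 5.21 to 115 against 271 to 1873 CPM. The cohesin subunit SMC3 differed by -3.85 (SE 0.77) and SH3BGRL2 by -4.07 (SE 0.99). The small heat-shock protein HSPB1 was at 0.404 to 45.2 CPM in the CCDC168-high libraries and 148 to 616 CPM in the KRT78-high libraries. Ram M2, of rank 8 and so between the ends, held 4302 CPM of HSPB1, and with 8 libraries per end the fitted difference of HSPB1 turned to 1.09. HSPH1, a chaperone of the HSP110 family, differed by -3.84 (SE 0.99), with rams C1 and C2 at 8.29 and 7.27 CPM and the other CCDC168-high libraries at 50.6 to 277 CPM.

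**Figure D2:**
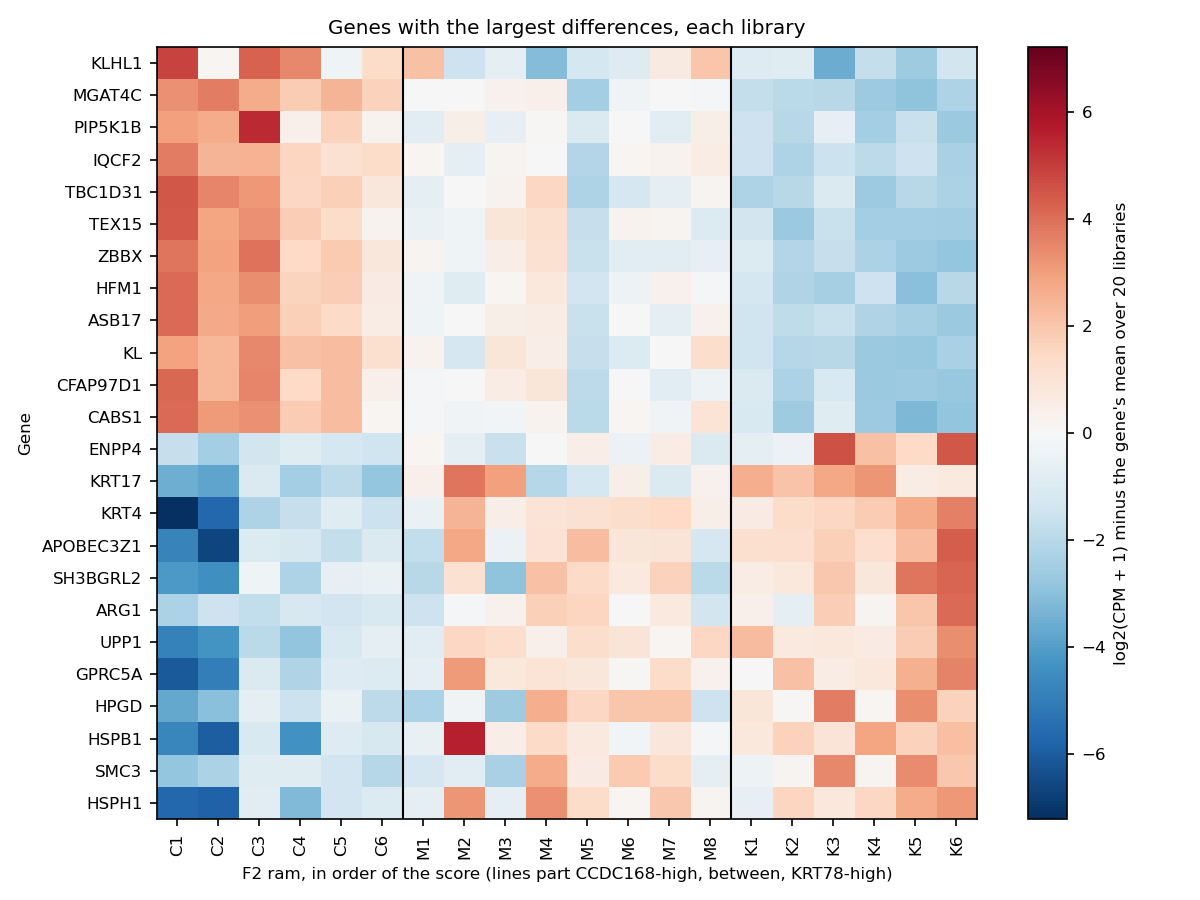
Each row is a gene and each column 1 of the 20 libraries in order of the score, with lines that part the CCDC168-high libraries, those between and the KRT78-high libraries. Colour is log2(CPM + 1) minus the mean of the gene over 20 libraries. The upper 12 genes are high on the left, and among the lower 12 HSPB1 in ram M2 stands out at 4302 CPM.

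Genes of spermatid chromatin packaging were higher in CCDC168-high libraries throughout. All 8 members that passed the filter, of 10 in the list, were called higher, beside 25.3% of all genes, and the median log2 difference was 3.72, beside -0.20. PRM1, which compacts sperm DNA, was at 338 CPM at the lowest, 1087 at the median and 1531 at the highest in the CCDC168-high libraries and at 34.8, 82.8 and 347 CPM in the KRT78-high libraries. Ram K5 supplied the value of 347 CPM, which exceeds the 338 CPM of ram C4, so that the ends overlapped. TNP2, a transition protein, was at 90.5 to 370 against 5.51 to 25.4 CPM, with no overlap. HMGB4, a testis high-mobility-group protein, differed by 4.11 (SE 0.70), BRDT, the testis bromodomain protein, by 3.84 (SE 0.60), and the kinase TSSK6 by 3.92 (SE 0.75).

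Summed over the list, chromatin packaging genes were at 952 to 4167 CPM in the CCDC168-high libraries, 180 to 1428 CPM in the 8 libraries between, and 76.5 to 506 CPM in the KRT78-high libraries (plot of list levels by library). Rams M1 and M4, outside the upper limit, held 1428 and 1121 CPM and exceeded rams C4 and C6 inside it, at 1037 and 952 CPM. Without rams C1 and C2 the median log2 difference of the list was 3.33.

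Genes of the tail were mostly higher as well. All 13 tested genes of the fibrous sheath and outer dense fibre were called higher, with a median log2 difference of 3.32, and the ends did not overlap for 12 of them. FSIP1, a fibrous sheath interacting protein, was at 102 to 603 against 11.1 to 21.8 CPM. OAZ3, an ornithine decarboxylase antizyme of spermatids, was at 65.2 to 497 against 9.96 to 51.1 CPM. CABYR, a calcium-binding protein of the fibrous sheath, and ODF2 differed by 2.85 (SE 0.55) and 2.88 (SE 0.56). SPA17 had the smallest difference, 1.56 (SE 0.46), and was the member whose ends overlapped.

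Of 18 axonemal genes, 16 were called higher and 1 lower, with a median of 1.998. HYDIN, a protein of the central pair of microtubules, was at 67.0 to 174 against 12.4 to 46.7 CPM. DNAI2, an intermediate chain of the dynein arms, differed by 3.02, and DNAH3, a dynein heavy chain, by 1.23 (SE 0.39). TEKT1, a tektin found in motile cilia as well as in sperm tails, went the other way, at 10.2 to 62.3 CPM in the CCDC168-high libraries and 21.8 to 172 CPM in the KRT78-high libraries. DNAH17, the sperm outer-arm dynein heavy chain, had a log2 difference of -0.18 and was not called. Its value turned to 1.01 when libraries were ranked by summed lists.

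**Figure D3:**
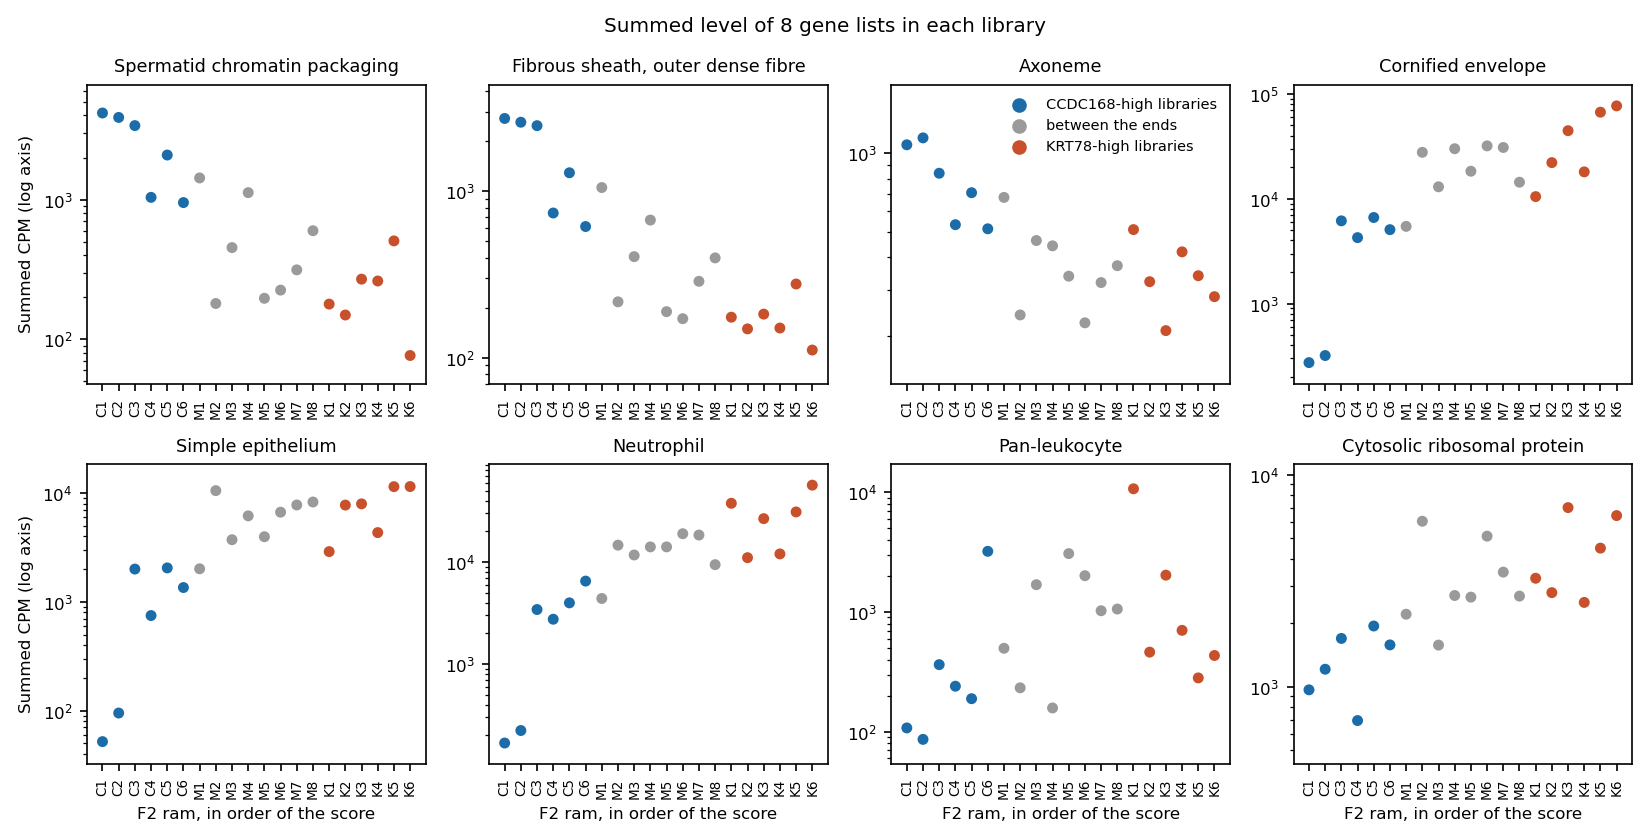
Each panel sums the CPM of the filtered genes of 1 list (y axis, log scale) in each of 20 libraries in order of the score (x axis, ram). Chromatin packaging falls from 4167 CPM in ram C1 to 76.5 CPM in ram K6, and rams C1 and C2 are lowest for the cornified envelope, simple epithelium and neutrophil lists.

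Of 19 acrosome and egg-binding genes, 7 passed the filter, and 6 were called higher and 1 lower. DPY19L2, a nuclear envelope protein that anchors the acrosome, was at 159 to 973 against 11.9 to 58.0 CPM. CRISP2 differed by 1.92 (SE 0.58) and IZUMO4 by 3.42 (SE 0.59), both with overlapping ends. SPACA4, the member called lower, was at 2.02 to 8.46 CPM in the CCDC168-high libraries, and its difference turned to 0.26 with 8 libraries per end, which brings in ram M2 at 164.5 CPM. ACR, ACRV1, ZPBP and SPACA1 were under the filter. Among late spermatid kinases and cytoplasmic proteins, 12 of 15 were called higher and none lower, with a median of 2.73. SPEM1, needed for the removal of sperm cytoplasm, was at 424 to 3876 against 40.9 to 218 CPM. LELP1 differed by 4.15 (SE 0.72) and SPATA6, a protein of the sperm neck, by 3.65 (SE 0.58). HOOK1, PGK2 and SPATA20 were not called, with log2 differences of 0.35, 0.80 and -0.24.

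Sperm ion channel genes gave 6 of 9 called higher and 1 lower. CATSPERB, a subunit of the sperm calcium channel, was at 48.5 to 242 against 5.72 to 21.8 CPM, and SLC9C1, a sperm sodium-proton exchanger, at 24.6 to 185 against 3.03 to 9.23 CPM. CATSPER4 was the member called lower, at -1.72. Of 6 meiotic genes, 4 were called higher. MSH4, a protein of meiotic crossovers, was at 44.2 to 263 against 5.25 to 16.5 CPM, and SYCP2 of the synaptonemal complex differed by 2.65 (SE 0.43). REC8, a meiotic cohesin subunit, differed in the other direction by -2.03 (SE 0.40) with no overlap, and SYCP3, SPO11 and DMC1 were under the filter. Of 9 Sertoli and Leydig cell genes, 4 passed the filter and 3 were called higher. FSHR, the FSH receptor of Sertoli cells, was at 3.25 to 8.76 against 0.202 to 4.24 CPM, and the Leydig cell genes INSL3, STAR, CYP11A1 and CYP17A1 were under the filter.

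The cornified envelope, desmosome and squamous transcription factor lists were mostly lower in CCDC168-high libraries, and the keratins were divided. Of 17 tested genes of the cornified envelope, 14 were called lower, beside 33.7% of all genes, and none higher, with a median log2 difference of -3.25. SCEL, the cornified envelope protein sciellin, was at 18.7 CPM at the lowest, 944 at the median and 1557 at the highest in the CCDC168-high libraries and at 1616, 6616 and 15713 CPM in the KRT78-high libraries. CRNN, cornulin, had the largest difference of the list, -3.83 (SE 1.10), with overlapping ends. ECM1 was at 26.5 to 1336 against 1523 to 11710 CPM and the protease inhibitor A2ML1 at 16.97 to 737 against 1113 to 10607 CPM. TGM3, CDSN and IVL, further genes of cornification, were not called, with log2 differences of 0.14, -0.69 and -1.41.

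Summed cornified envelope genes were at 273 CPM in ram C1 and 319 CPM in ram C2, up to 6622 CPM in the other CCDC168-high libraries, and at 10478 to 76886 CPM in the KRT78-high libraries. The libraries between the ends held 5450 to 31953 CPM with a median of 23014 CPM, which exceeds rams K1, K2 and K4. A high level of these genes was thus not particular to the KRT78-high libraries. Without rams C1 and C2 the median log2 difference was -2.71. Of 6 squamous keratins 3 were called lower, namely KRT4, KRT17 and KRT80, and KRT1, the keratin of dry epidermis, was called higher at 1.78 (SE 0.49) from low levels of 3.45 to 16.2 against 1.05 to 5.56 CPM. KRT77 and KRT3 were not called, at 1.01 and 0.59. In the desmosome list 7 of 8 genes were called lower. Summed, the list was at 86.1 to 401 CPM in the CCDC168-high libraries, 450 to 4341 CPM in those between and 419 to 2344 CPM in the KRT78-high libraries. Ram K1 supplied the 419 CPM and ram M2 the 4341 CPM. DSP, desmoplakin, was at 17.8 to 101 against 171 to 560 CPM. Its difference was 0.02 with 8 libraries per end, where ram M2 entered with 2118 CPM.

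Of 10 squamous transcription factors, 8 were called lower and 1 higher. ELF3, an ETS factor of epithelia, was at 16.1 to 1309 against 1761 to 8112 CPM and GRHL3, which drives barrier formation, at 8.89 to 149 against 176 to 1186 CPM. KLF5 and EHF differed by -3.09 (SE 0.98) and -2.86 (SE 0.79) with overlapping ends. PAX9 was the member called higher, at 1.08.

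Markers of other cells are given beside the squamous genes. Of 8 tested genes of simple epithelium, 5 were called lower, and the summed list was at 51.9 to 2048 CPM in the CCDC168-high libraries and 2893 to 11462 CPM in the KRT78-high libraries. KRT19 was at 12.8 to 1281 against 2048 to 7485 CPM and KRT7 at 7.81 to 288 against 425 to 1631 CPM. EPCAM and KRT18, defining genes of simple epithelium, were not called, at -0.08 and 0.73. Of 8 genes of mucosal and gland secretion 4 were called lower, among them the mucin MUC1 at 14.95 to 708 against 706 to 4130 CPM, and the ends overlapped for every member. The part of each epithelium in these differences was not tested.

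Of 15 neutrophil genes, 9 were called lower and 1 higher, with a median of -2.47, and the summed list was at 168 to 6505 against 11038 to 56793 CPM. S100A9 and S100A8, calprotectin subunits that neutrophils and squamous cells both make, led the list, with S100A9 at 32.7 to 2397 against 7006 to 37889 CPM. The receptors that define neutrophils had negative differences too, with overlapping ends and a wide spread. CSF3R was at 6.63 to 1161 CPM in the CCDC168-high libraries and 17.6 to 10664 CPM in the KRT78-high libraries and was not called at a log2 difference of -3.08 (SE 1.41). CXCR2 was at 1.62 to 1183 against 17.8 to 3454 CPM and was not called at -1.67 (SE 1.33), and CXCR1 was not called at -2.29 (SE 1.31). The highest CSF3R of the KRT78-high libraries came from ram K1 and the highest of the CCDC168-high libraries from ram C6. MPO, a granule enzyme made in marrow precursors, was called higher at 2.05.

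Pan-leukocyte genes were at 86.5 to 3207 CPM summed in the CCDC168-high libraries and 282 to 10660 CPM in the KRT78-high libraries, and 5 of 9 were called lower. Each highest value came from 1 library, C6 at 3207 CPM with the other CCDC168-high libraries at 363 CPM or less, and K1 at 10660 CPM with the other KRT78-high libraries at 2028 CPM or less, so that C6 exceeded all KRT78-high libraries but K1. PTPRC, the leukocyte antigen CD45, was at 15.9 to 338 against 61.0 to 1241 CPM and was not called. In the macrophage list 3 of 10 were called lower, a share under the 33.7% of all genes, and 1 higher (MRC1 at 0.92). Among the 3 was CD68 at 4.04 to 324 against 415 to 2235 CPM, while C1QC, CSF1R and AIF1 were not called. Of 6 lymphocyte genes 5 were called lower, with means of 27.4 CPM or less in each of the 5. The erythroid gene SLC4A1 was not called, and stroma and endothelium gave 2 of 9 called higher (MYH11 and COL1A1) and none lower. The part of leukocytes in the other differences was not tested.

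Immediate early and heat-shock genes were lower in CCDC168-high libraries for 10 of 12 members, with a median of -2.78. DNAJB1, an HSP40 chaperone, was at 41.5 to 510 against 772 to 3453 CPM and the AP-1 factor JUNB at 4.50 to 814 against 1082 to 4846 CPM, both with no overlap. EGR1 and FOS were not called. Cytosolic ribosomal protein genes were lower for 62 of 74 and higher for none, with a median of -1.88, or -1.18 after thinning. RPS2 was at 8.49 to 104 against 126 to 483 CPM, whereas RPLP1 stood at 41.5 to 265 against 82.4 to 197 CPM with a log2 difference of -0.00. Among 39 nuclear genes of oxidative phosphorylation, 17 were called lower and 2 higher, with a median of -0.65, or -0.16 after thinning, and ATP5F1B, the catalytic beta subunit of ATP synthase, was at 4.26 to 24.8 against 55.7 to 197 CPM. A larger TMM factor lowers every CPM of its library, and the factors were 1.21 to 2.54 in the CCDC168-high and 0.361 to 1.17 in the KRT78-high libraries. The part of this scaling in the ribosomal and oxidative phosphorylation lists was not tested. Mitochondrially encoded transcripts were not analysed here.

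Lists of genes better known from other organs were drawn up after the leading genes had been seen. Of 10 neuronal genes 7 were called higher and 1 lower, among them CSMD1 at 1.75. Of 5 muscle genes 1 was called higher and 2 lower, and the titin gene TTN differed by 2.57. Of 4 liver genes 1 was called higher and 1 lower, APOB at 1.96 and the protease inhibitor SERPINA1 at -3.66. The plot of differences by list sets all 26 lists side by side.

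**Figure D4:**
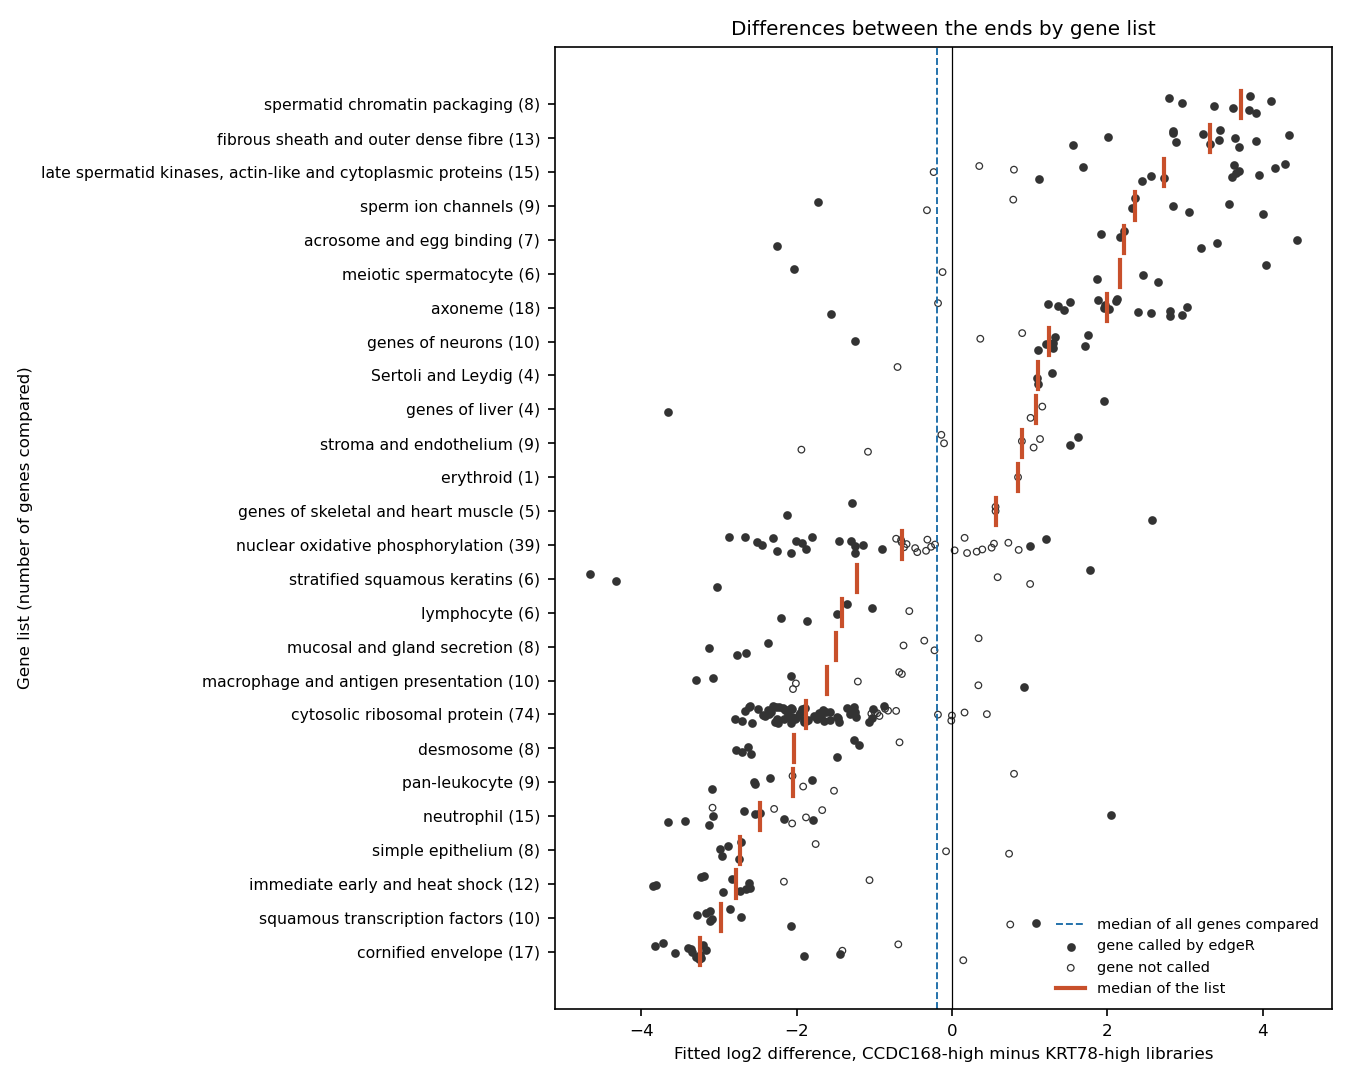
Each point is the fitted log2 difference of 1 gene between the 6 CCDC168-high and the 6 KRT78-high libraries (x axis), arranged by list (y axis), filled where edgeR called the gene. The bar is the median of the list, from 3.72 for chromatin packaging to -3.25 for the cornified envelope, and the dashed line is the median of all genes, -0.20.

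The diet of the F0 grandsire, which was not used in the ranking, gave no difference in score that passed the test. Grandsons of treatment rams had a score of -0.91 ± 3.85 (SD, n = 10) and grandsons of control rams a score of -1.51 ± 4.90 (SD, n = 10), and a 2-sided permutation test with 100000 resamples gave p = 0.765. That test treats the 20 rams as independent, although each F0 sire has 2 grandsons among them. With the mean of the grandsons of each sire as 1 value, an alternative added after seeing the data, the scores were -0.91 ± 1.68 (SD, n = 5 sires) and -1.51 ± 3.47 (SD, n = 5 sires), with an exact permutation p of 0.722. In the study the 5 treatment sires were twins of the 5 control sires, and neither test uses that pairing. Both ends held 2 treatment and 4 control libraries (Fisher's exact test, p = 1). The 8 libraries between the ends held 6 treatment and 2 control libraries.

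DNA from the semen of the same 12 rams was then compared at 122453 CG cytosines, each covered by at least 10 reads in every F2 ram. The methylation level is the percentage of reads that were read as methylated, averaged over cytosines. The mean level was 69.9% ± 0.581 (SD, n = 6) in the rams of the CCDC168-high libraries and 71.0% ± 2.08 (SD, n = 6) in those of the KRT78-high libraries. The difference of -1.16 points did not pass the 2-sided exact permutation test (p = 0.203). At the 14182 cytosines with at least 20 reads in each of the 12 rams it was -14.6 points and passed the test (exact permutation p = 0.0216). That cut averages another mix of cytosines, as given below. Weighted by reads, the difference over all cytosines was -6.77 points (exact permutation p = 0.108). On the numbered chromosomes alone the unweighted difference had the other sign, as given below, and without rams K2, K4 and K5 it turned to 0.65 points (exact permutation p = 0.286). The tests on 12 rams and the correlations treat rams as independent, although the 12 descend from 7 F0 sires and the 20 from 10. They also leave out that treatment sires were twins of control sires. The 6 rams of the CCDC168-high libraries lay within 68.9 to 70.5%, while rams K2, K4 and K5 of the KRT78-high libraries were at 73.0, 72.8 and 72.7% and rams K1, K3 and K6 at 68.8, 68.5 and 70.3%. Over all 20 rams, score and mean level had a Pearson's r of -0.32 (permutation p = 0.165) and a Spearman's rho of -0.34 (permutation p = 0.149). Without the rams with the most distant scores, C1 and C2, r was -0.37 (permutation p = 0.130) and rho -0.31 (permutation p = 0.216). Within the treatment rams r was -0.26 (permutation p = 0.479) and rho -0.14 (permutation p = 0.711), and within the control rams r was -0.40 (permutation p = 0.248) and rho -0.48 (permutation p = 0.164). Adjusted over these relations (20 rams and each diet, 3 in all), the permutation p-values were 0.372, 0.479 and 0.372 for r and 0.245, 0.711 and 0.245 for rho.

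Cytosines were divided by their mean level in the 8 rams between the ends, which took no part in the comparison. In the 52838 cytosines above 90%, the rams of the CCDC168-high libraries were at 96.0 to 96.8%, with a mean of 96.6% ± 0.277 (SD, n = 6). The rams of the KRT78-high libraries were at 86.8 to 96.6%, with a mean of 92.2% ± 4.28 (SD, n = 6). The difference of 4.34 points passed the exact permutation test (p = 0.00433, adjusted over 3 classes p = 0.0130). It rested on rams K2, K4 and K5, which were at 89.7, 88.7 and 86.8%, and without these 3 rams it was 0.54 points (exact permutation, adjusted p = 0.0714). Leaving rams out also leaves fewer ways to split the rest, so the test then cannot reach p-values as low. In the 67390 cytosines between 10 and 90% the difference was -5.48 points (exact permutation, adjusted p = 0.154), and in the 2225 cytosines under 10% it was -1.25 points (exact permutation, adjusted p = 0.0747). The middle class was at -16.5 points with at least 20 reads in each of the 12 rams (exact permutation, adjusted p = 0.0195) and turned to 0.76 points without rams K2, K4 and K5 (exact permutation, adjusted p = 0.464). The low class passed the test at -3.07 points with at least 20 reads, at -7.22 points with class limits of 20 and 80%, at -1.18 points with 8 rams per end and at -8.17 points with classes set by 5 rams (exact permutation, adjusted p from 0.0130 to 0.0212). Without rams K2, K4 and K5 the low class was at -0.26 points (exact permutation, adjusted p = 0.464).

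Placement in the genome separated the cytosines further, a division chosen after seeing the data. The 101164 cytosines on the 26 numbered chromosomes were at 77.8% ± 0.641 (SD, n = 6) in the rams of the CCDC168-high libraries and 75.5% ± 1.53 (SD, n = 6) in those of the KRT78-high libraries, a difference of 2.26 points (exact permutation p = 0.0152, adjusted over both parts p = 0.0152). That autosomal call depended on the setting. The difference turned to -3.47 points with at least 20 reads in each of the 12 rams (exact permutation p = 0.158), and was 0.038 points when weighted by reads (exact permutation p = 0.972) and 1.12 points when rams were ranked by summed lists (exact permutation p = 0.260). The 20608 cytosines on 398 unplaced scaffolds, sequences of the assembly not assigned to a chromosome, went the other way, at 31.1% ± 1.74 (SD, n = 6) against 49.1% ± 17.8 (SD, n = 6), a difference of -18.0 points (exact permutation p = 0.0152, adjusted p = 0.0152). The 6 rams of the CCDC168-high libraries were at 28.8 to 32.7% on the scaffolds, and rams K1, K3 and K6 at 33.8, 33.3 and 31.5%. Rams K2, K4 and K5 were at 65.3, 66.3 and 64.3%. Between the ends ram M6 was at 59.2%, ram M3 at 45.8%, ram M8 at 42.5% and the other 5 rams at 30.5 to 36.1%. Without rams K2, K4 and K5 the scaffold difference was -1.74 points (exact permutation p = 0.155) and the autosomal difference 1.13 points (exact permutation p = 0.107), so neither call held without these 3. The scaffold call was also lost on leaving out any 1 of C1 to C6 (-17.5 to -18.3 points, exact permutation p from 0.0693 to 0.0758), and when rams were ranked by summed lists (-15.5 points, exact permutation p = 0.0974).

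The 3 sire pairs at opposite ends hold none of these 3 rams. On the scaffolds ram C1 lay 1.09 points under ram K1 (difference -1.09), ram C2 was at -1.42 points from ram K3, and ram C5 was 1.19 points above ram K6. On the numbered chromosomes the same pairs differed by 1.93, 2.27 and -0.04 points. Over all cytosines they differed by 1.43, 1.65 and 0.17 points, each opposite in sign to the difference of -1.16 points over the 12 rams, and in the cytosines above 90% by 0.85, 0.88 and 0.11 points. Rams K4 and K5, with the high scaffold level, share an F0 sire, whereas ram M1, the other grandson of the F0 sire behind ram K2, was at 33.0%.

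Scaffold cytosines were read more deeply, with a median over rams of 40.5 reads against 25 on the numbered chromosomes, and 98.0% of them lay in the class between 10 and 90%. Median reads per cytosine over the whole set were 19 to 27 in the rams of the CCDC168-high libraries and 12 to 30 in the others, with a difference of 0.5 reads (exact permutation p = 0.913), and ram K5 had the 12. Among cytosines with at least 20 reads in each of the 12 rams, the scaffold difference was -18.8 points (exact permutation p = 0.0152) and the autosomal difference -3.47 points (exact permutation p = 0.158). The difference of -14.6 points over that whole set lies nearer to the scaffold value, so scaffold cytosines weigh more in it than among all cytosines. Their share of the set was not counted. The RNA of rams K2, K4 and K5 held 462, 702 and 282 CPM of summed pan-leukocyte genes and 11038, 12018 and 31010 CPM of neutrophil genes, within the range of the other KRT78-high libraries or under it. Their KRT78 was at 9376, 8525 and 36816 CPM, likewise inside the range of rams K1, K3 and K6 or, for ram K5, above it. The paper describes somatic cell lysis for the RNA samples and none for the DNA, so these RNA levels need not reflect the cells behind the DNA. The part of somatic cells in the DNA was not tested.

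**Figure D5:**
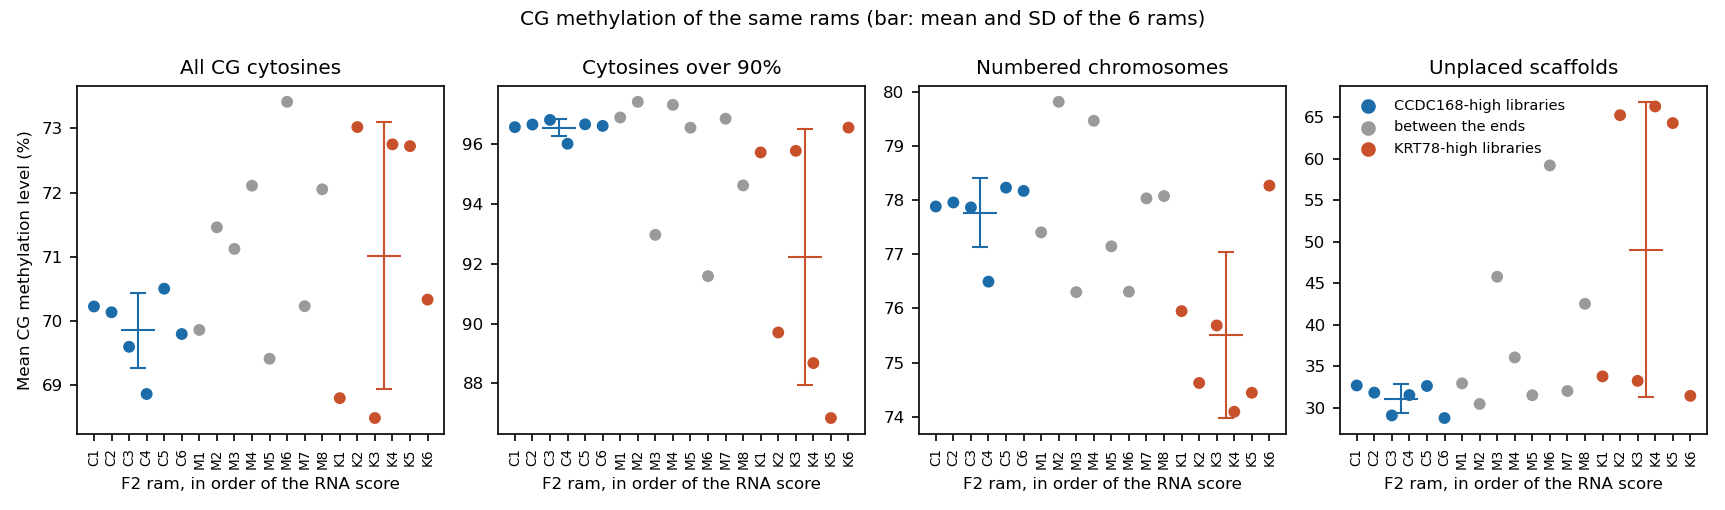
Each point is the mean CG level (y axis, %) of 1 F2 ram, in order of the RNA score (x axis), over all cytosines, over those above 90% in the rams between the ends, on numbered chromosomes and on unplaced scaffolds. Bars give the mean and SD of 6 rams, and rams K2, K4 and K5 stand at 64.3 to 66.3% on the scaffolds.

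At single cytosines no difference passed the test. limma called 0 of 122069 varying cytosines higher and 0 lower at an adjusted p of at most 0.01 with at least 20 points (0% in each direction), and the smallest adjusted p was 0.244. At an unadjusted p under 0.05 limma gave 9069 higher and 14988 lower of the same 122069. A likelihood-ratio test on reads summed over the 6 rams of each end, which leaves the spread between rams out of its error, called 3183 higher and 8608 lower of 122453. The rams of the ends did not overlap at 509 cytosines higher (0.416%) and 582 lower (0.475%). On the scaffolds these numbered 0 higher and 460 lower (2.23% of scaffold cytosines). On the numbered chromosomes they numbered 503 higher (0.497% of the cytosines there) and 122 lower (0.121%).

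Of the non-overlapping cytosines, those with the largest and second largest difference in each direction are described. Of these, 3 lay on chromosome 12 of the Oar_rambouillet_v1.0 build. The gene annotation of that build was not used here. The minus-strand cytosine at chr12:25377811 was at 62.5 to 100% in the rams of the CCDC168-high libraries, with a median of 96.0%, and at 0 to 51.9% in those of the KRT78-high libraries, with a median of 1.39%, over 12 to 36 reads per ram. The difference was 75.9 points (SE 10.1, limma adjusted p = 0.244). The minus-strand cytosine at chr12:37913825 was at 80 to 100% against 0 to 50%, a difference of 67.5 points over 10 to 27 reads. In the other direction, the plus-strand cytosine at chr12:61471555 was at 0 to 60% against 61.9 to 100%, a difference of -51.6 points over 10 to 30 reads. At each of the 3, the 8 rams between the ends ranged at least from 7.14% to 100%. The second such cytosine lower in the rams of the CCDC168-high libraries lay on an unplaced scaffold, at 4.82 to 14.8% against 14.9 to 88.7%, with rams K2, K4 and K5 at 88.7, 87.0 and 79.3%.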

How the data were processed

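The authors trimmed RNA reads with Trimmomatic and counted them per gene with STAR. The deposited values are raw counts. The annotation release and strand setting are not given in the sources used here. Bisulfite reads were trimmed with Trim Galore and aligned with Bismark and Bowtie2 by the authors, and the deposited CG file holds read counts per cytosine (covering and methylated reads), kept at 10 or more reads in every F2 ram. Its 20 columns of unmethylated reads were not used. The filter on genes asked for 15 counts or more in over 10 of the 20 libraries and left 13575 besides the ranking pair. The study states another number of genes for a filter of the same wording, and the reason was not found. Differences were fitted with edgeR 4.0.16 (TMM, quasi-likelihood, Benjamini-Hochberg, calls at adjusted p under 0.05) and, per cytosine, limma 3.58.1, both tested on simulated data. The SE of a gene is the size of its log2 difference divided by the square root of its quasi-likelihood F statistic. It thus restates that fit and, like the calls, is a description of libraries selected on their own counts. Methylation means were compared by exact permutation over rams, whose p-values can go no lower than 0.00216 for 6 against 6 rams. The limit is higher where rams were left out and lower with more rams per end. Alternatives included DESeq2 1.42.0. Members and gene lists were chosen with earlier results of these data known. Named genes are the 3 markers, the 12 largest non-overlapping called differences per direction (mean CPM of at least 5, unnamed loci left out) and the 4 most abundant members of each list, with exceptions added after their values were seen. Lists cover spermatid, meiotic, testis somatic, squamous, glandular, leukocyte, erythroid, stromal, stress, ribosomal and respiratory genes. CHG, CHH, F0 and F1 data were not used.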

Additional observations from a re-analysis of the deposited data

Results flagged for a closer look

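Of 70 groups of 6 tested for a sample far from the others, 4 were found, and chance alone gives about 1 in 20. In the rams of the CCDC168-high libraries, ram C4 was lowest for the CG level in cytosines above 90%, at 96.0% against 96.6 to 96.8% in the other 5, and for the level on numbered chromosomes, at 76.5% against 77.9 to 78.2%. Ram C6 had a median of 19 reads per cytosine, the other 5 having 25 to 27. Among the rams of the KRT78-high libraries, ram K5 had a median of 12 reads per cytosine and the other 5 had 24 to 30.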

How the results depend on the processing

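Gene calls lower in CCDC168-high libraries numbered 2604 with 10 libraries per end and 2918 after thinning, in place of 4577. HSPB1 turned to 1.09 and 1.06 and SPACA4 to 0.26 and 0.51 on the log2 scale with 8 and 10 libraries per end, DSP to 0.018 with 8, and DNAH17 to 1.01 when ranked by summed lists. The mean CG difference was -14.6 points at 20 reads or more in each of the 12 rams, a set of 14182 cytosines in which scaffolds weigh more. It was -6.77 when weighted by reads (exact permutation p = 0.108), 2.26 on autosomes and 0.65 without rams K2, K4 and K5. The autosomal difference was -3.47 at 20 reads, 0.038 when weighted by reads, 1.12 when ranked by summed lists and 1.13 without those 3 rams, and the scaffold difference -15.5 by summed lists and -1.74 without them. None of these autosomal and scaffold values passed the test. Leaving out each ram in turn gave scaffold differences of -21.5 to -14.5 points, and the call was lost without any one of the CCDC168-high rams (exact permutation p from 0.0693 to 0.0758).

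In low cytosines the difference passed the test at limits of 20 and 80% (-7.22), at 20 reads (-3.07), with 8 rams per end (-1.18) and with classes set by 5 rams (-8.17), and in middle cytosines at 20 reads (-16.5). Without rams K2, K4 and K5 the low class was at -0.26 (exact permutation, adjusted p = 0.464), the middle class turned to 0.76 and the high class lost its call at 0.54. Single cytosines called were 3183 higher and 8608 lower on summed reads, 1 lower with diet in the fit, 2 higher and 1 lower without those 3 rams, and 0 to 1 in each direction without each ram. The diet difference in score (0.60) turned to -0.12 by summed lists. The cause was not tested in any of these. The planned test of CG levels at listed genes was not run, since no annotation of the build was used. The labels give the ends no shared replicate numbers. The 3 pairs of rams with a shared F0 sire at opposite ends are given as differences, with no test.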
